A study of Mus musculus with 6 samples.

Results

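Transcript levels of 35 mouse genes of DNA damage repair and checkpoint signalling were compared between Rb1L/L and Rb1+/+ mouse embryonic fibroblasts (MEFs), cultures of mainly mesenchymal cells derived from whole embryos. The genes were taken from a list of 36 names, split by role into homologous recombination, the Fanconi anaemia pathway, mismatch repair, end joining and checkpoint kinases. Xrcc2 had no transcript cluster of its own in the array annotation and was not analysed here, so 35 of the 19938 genes named on the array are described, and all 35 were among the 15462 bright enough to be tested. The series holds 3 Rb1L/L and 3 Rb1+/+ cultures, 1 Affymetrix gene array each, made from E13.5 embryos and grown to passage 4 in medium with serum. All were untreated and proliferating when RNA was taken. Rb1L/L cultures carry on both copies of Rb1 a germline L allele, known to alter the cleft through which the retinoblastoma protein pRb binds partners with an LXCXE motif, so every cell type of the culture has it. The labels name pairs of cultures but not whether the 3 cultures of a genotype came from separate embryos or litters, so the p-values measure only the spread between these cultures. The values are log2 intensities made by the authors with RMA, a method meant to bring all arrays to 1 distribution. The array medians here ran from log2 6.39 to 6.45. In such bulk samples, more RNA per cell and more cells of a kind that makes the RNA cannot be told apart.

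A break through both DNA strands can be mended by homologous recombination, which copies the sister chromatid and so works in S and G2 phase, or by end joining, which religates the ends at any time. The Fanconi anaemia proteins unhook crosslinks between the strands, and mismatch repair corrects errors left by the replication machinery. The kinases ATM and ATR sense breaks and stalled forks and act through CHEK2 and CHEK1 to hold the cell cycle. Many of these genes are transcribed most strongly around S phase, and several are known targets of E2F, the transcription factor family that pRb restrains.

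Several repair and checkpoint genes were modestly higher in Rb1L/L cultures, and none was called lower. Of the 35, 7 rose and 0 fell (limma, Benjamini-Hochberg adjusted p under 0.05), that is 20.0% higher, where 7.10% of all tested genes were called higher and 5.08% lower. At an unadjusted p under 0.05, 17 were higher and 0 lower, against 14.4% of all tested genes in each direction. The 7 were Rad54l, Msh6, Xrcc6, Atm, Xrcc1, Fancm and Msh3, with log2 changes (Rb1L/L minus Rb1+/+) of 0.24 to 0.51, or 1.18-fold to 1.42-fold. With the replicate number as a block, 9 rose and 0 fell, against 7.99% of all tested genes called higher and 6.45% lower in that fit. Fancd2, Fanci and Brip1 were added, and Msh3 was lost (adjusted p = 0.0629). The median log2 change was 0.17 over the 35 genes and -0.021 over all tested genes, and 33 of the 35 changes lay above 0, as did 43.6% of all tested genes. With 1 culture left out, fewer of the 35 passed, and fewer of all tested genes were called higher than the 1098 over all arrays. Without Rb1L/L replicate 1, 2 or 3, 1, 1 and 5 of the 35 passed, against 424, 436 and 728 of all 15462 tested genes. Without Rb1+/+ replicate 1, 2 or 3, 4 passed each time, against 541, 850 and 628 of all tested genes. Rad54l alone passed in all 6 of these fits, while Msh3 passed in 0.

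**Figure D1:**
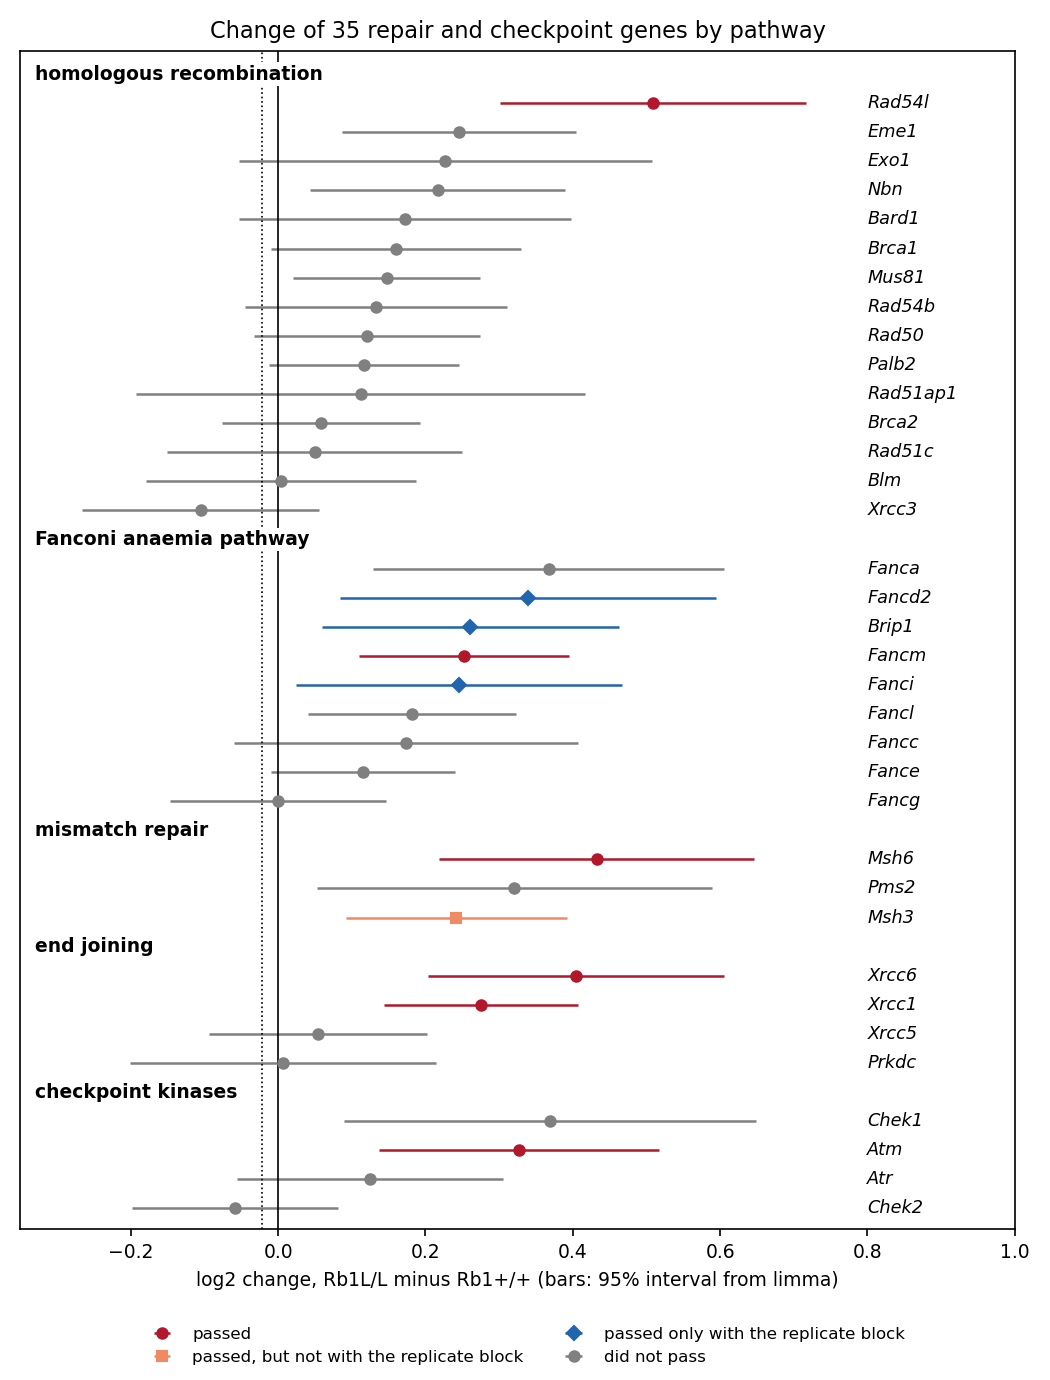
Log2 change between Rb1L/L and Rb1+/+ cultures for each of the 35 genes, grouped by pathway, with 95% intervals from limma. The dotted line marks the median of all tested genes (-0.021). Of the points, 33 lie right of 0, and Rad54l, Msh6 and Xrcc6 lie farthest right among those that passed.

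RefSeq promoter sequences (GRCm38.p6, 250 bases before to 50 after the annotated start) were available for 29 of the 35 genes. They were searched on both strands for 4 words of the E2F consensus. The first was TTCCCGC. Its variants were spelled TTGGCGC in one case, TTCGCGC in another and TTGCCGC in the last. Words on opposite strands can overlap, as they do in Msh3. At least 1 word was found for 17 of the 29 genes (58.6%), against 17.4% of the tested genes with a promoter entry. Over all genes with a promoter entry the share was 10.9%, and over the single promoter entries 9.57%. The words were present in 5 of the 7 genes that rose and in 12 of the 22 others with a sequence. Rad54l and Xrcc1, which rose, had none in this window, whereas Fancg and Blm, with the changes nearest to 0 among genes with a sequence, each had 1. A match is a string of letters and not a measured binding site. The promoters of Msh6, Xrcc6, Atm and Fancm are shown because these are the 4 called genes with a word and the largest changes, and those of Fancg and Blm because they hold a word and had the smallest changes. Each is written in the direction of the gene, with the words or their reverse complements in capitals.
Msh6, chr17:87974800-87975099, plus strand: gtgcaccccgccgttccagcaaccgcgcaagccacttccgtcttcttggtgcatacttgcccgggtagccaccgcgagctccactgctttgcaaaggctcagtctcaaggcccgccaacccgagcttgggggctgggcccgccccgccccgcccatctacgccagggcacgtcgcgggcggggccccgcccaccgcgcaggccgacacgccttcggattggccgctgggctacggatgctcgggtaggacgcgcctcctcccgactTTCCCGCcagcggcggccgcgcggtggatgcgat
Xrcc6, chr15:82016119-82016418, plus strand: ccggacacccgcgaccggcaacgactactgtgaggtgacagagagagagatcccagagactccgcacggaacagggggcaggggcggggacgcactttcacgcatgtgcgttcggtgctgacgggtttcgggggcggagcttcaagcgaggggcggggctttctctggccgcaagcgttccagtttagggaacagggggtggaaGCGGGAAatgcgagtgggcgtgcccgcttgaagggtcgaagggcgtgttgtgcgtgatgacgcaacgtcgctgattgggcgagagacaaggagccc
Atm, chr9:53536622-53536921, minus strand: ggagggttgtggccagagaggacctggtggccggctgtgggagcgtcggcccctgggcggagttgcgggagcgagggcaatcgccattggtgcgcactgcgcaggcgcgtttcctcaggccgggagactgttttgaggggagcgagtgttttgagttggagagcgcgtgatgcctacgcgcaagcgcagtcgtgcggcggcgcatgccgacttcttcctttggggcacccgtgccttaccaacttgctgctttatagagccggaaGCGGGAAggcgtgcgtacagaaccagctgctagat
Fancm, chr12:65075353-65075652, plus strand: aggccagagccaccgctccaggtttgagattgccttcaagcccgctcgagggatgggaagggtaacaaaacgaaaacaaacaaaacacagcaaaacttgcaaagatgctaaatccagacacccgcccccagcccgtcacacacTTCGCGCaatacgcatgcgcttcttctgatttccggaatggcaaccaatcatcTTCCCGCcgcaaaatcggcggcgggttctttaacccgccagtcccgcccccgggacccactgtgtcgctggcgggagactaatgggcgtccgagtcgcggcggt
Fancg, chr4:43010252-43010551, minus strand: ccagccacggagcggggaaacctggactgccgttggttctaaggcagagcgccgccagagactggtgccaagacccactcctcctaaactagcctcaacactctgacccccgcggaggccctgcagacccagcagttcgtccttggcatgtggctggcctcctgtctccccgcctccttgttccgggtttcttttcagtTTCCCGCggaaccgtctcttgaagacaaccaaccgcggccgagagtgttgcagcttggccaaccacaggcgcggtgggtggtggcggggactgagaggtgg
Blm, chr7:80534949-80535248, minus strand: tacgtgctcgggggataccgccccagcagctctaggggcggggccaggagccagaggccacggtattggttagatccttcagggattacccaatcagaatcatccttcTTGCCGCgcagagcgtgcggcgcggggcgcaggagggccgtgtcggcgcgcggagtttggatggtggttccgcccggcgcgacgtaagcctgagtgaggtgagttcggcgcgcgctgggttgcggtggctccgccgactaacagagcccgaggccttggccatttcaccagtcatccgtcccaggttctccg

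The word lay 16 bases after the annotated start in Msh6, 15 bases after it in Atm and at position -46 before it in Xrcc6, counted to the first base of the word with the start as 0. Fancm had 2 words, at positions -107 and -54 relative to the start. The word of Fancg, at position -51, thus lay at a like distance to those of Xrcc6 and Fancm, while that of Blm lay at -142.

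Homologous recombination was represented by 15 genes, of which 1 rose and 0 fell (4 and 0 at an unadjusted p under 0.05), with a median log2 change of 0.13. That was 6.67% called higher, near the 7.10% of all tested genes. At the unadjusted threshold 14.4% of all tested genes were higher. Rad54l, a motor protein that helps a broken end invade the sister duplex, measured log2 7.36, 7.66 and 7.44 in Rb1L/L cultures, against 6.88, 7.09 and 6.97 in Rb1+/+ cultures. Every Rb1L/L culture stood above every Rb1+/+ culture by at least 0.27. The change was 0.51 ± 0.09 (SE), or 42.3% more signal, with an adjusted p of 0.0136 (0.0188 to 0.0489 with 1 culture left out). Its paralog Rad54b changed by 0.13 (95% interval -0.045 to 0.31).

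Of the 15 recombination genes, 6 had groups that did not overlap, with Rb1L/L higher, against 16.2% of all tested genes. Besides Rad54l these were Nbn, Brca1, Palb2, Eme1 and Mus81. The nuclease pair Eme1 and Mus81 cuts joined DNA molecules, and Nbn is a subunit of the MRN break sensor. Eme1 measured log2 7.80, 7.85 and 7.71 in Rb1L/L cultures, against 7.46, 7.51 and 7.65 in Rb1+/+ cultures, a change of 0.25 (adjusted p = 0.0546). It missed the threshold in the fit over all arrays and passed after centring on all clusters (0.0349), with array weights (0.0395), with a filter at log2 6 (0.0453) and without Rb1+/+ replicate 3 (0.0499). Mus81 measured 8.80, 8.73 and 8.82 in Rb1L/L cultures and 8.66, 8.64 and 8.60 in Rb1+/+ cultures (adjusted p = 0.121). Nbn measured 8.84, 8.71 and 8.68 in Rb1L/L cultures and 8.40, 8.61 and 8.56 in Rb1+/+ cultures (adjusted p = 0.101). A second, dimmer Nbn cluster differed by 0.01, and the 3 Bard1 clusters by 0.17, 0.05 and 0.16. Nbn's partner Rad50 changed by 0.12 (interval -0.032 to 0.27).

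Brca1, the ubiquitin ligase subunit that starts recombination, had a change of 0.16 (interval -0.0094 to 0.33), with 7.37, 7.56 and 7.38 in Rb1L/L cultures and 7.19, 7.34 and 7.30 in Rb1+/+ cultures. The groups were apart by only 0.027. Its partner Bard1 changed by 0.17 (interval -0.053 to 0.40). Palb2, which links BRCA1 to BRCA2, changed by 0.12 (interval -0.013 to 0.25), its groups apart by only 0.025. Brca2, a central mediator of recombination, changed by 0.06 (interval -0.076 to 0.19). Exo1, a nuclease that resects break ends and also serves mismatch repair, had the widest spread of Rb1L/L cultures in this class: 7.55, 7.71 and 7.22, against 7.23, 7.41 and 7.18 in Rb1+/+ cultures. Rb1L/L replicate 3 lay within the Rb1+/+ values. Rad51ap1, an accessory factor of strand invasion, had its wider spread among the Rb1+/+ cultures, with Rb1+/+ replicate 3 highest of all cultures at 7.37. Its change was 0.11 (interval -0.19 to 0.42). The recombination genes Rad51c (0.05, interval -0.15 to 0.25) and Xrcc3 (-0.10, interval -0.27 to 0.056) and the helicase gene Blm (0.0036, interval -0.18 to 0.19) did not pass. Rad54l had the largest change of the class, with an interval of 0.30 to 0.72. The intervals of several other genes reached into it, among them those of Exo1 (up to 0.51), Rad51ap1 (0.42), Eme1 (0.40) and Bard1 (0.40).

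The Fanconi anaemia genes were 9, of which 1 rose in the fit without the block and 4 with it, and 0 fell in either (6 and 0 at an unadjusted p under 0.05), with a median log2 change of 0.25. Over all tested genes, 7.10% were called higher without the block and 7.99% with it. Groups did not overlap, with Rb1L/L higher, for 7 of the 9, against 16.2% of all tested genes. Fancm, the DNA translocase that anchors the core complex at stalled forks, measured log2 6.77, 6.83 and 6.71 in Rb1L/L cultures, against 6.47, 6.59 and 6.50 in Rb1+/+ cultures. It rose by 0.25 ± 0.06 (SE; adjusted p = 0.0362), but with 1 culture left out it passed only without Rb1+/+ replicate 2 (0.0423), the other fits giving 0.0539 to 0.122.

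Fancd2 and Fanci encode the 2 proteins that the core complex marks with ubiquitin, and both passed only with the replicate block. Fancd2 measured 7.14, 7.31 and 7.19 in Rb1L/L cultures, against 6.61, 6.99 and 7.03 in Rb1+/+ cultures, a change of 0.34 (adjusted p = 0.0853, or 0.0358 with the block). Fanci measured 6.93, 7.13 and 7.08 in Rb1L/L cultures, against 6.60, 6.89 and 6.92 in Rb1+/+ cultures, a change of 0.25 (0.134, or 0.0431 with the block). In both, Rb1+/+ replicate 1 was the lowest array, below both other Rb1+/+ cultures. Brip1, a helicase that binds BRCA1 and is also known as FANCJ, showed the same layout, with 7.46, 7.54 and 7.54 in Rb1L/L cultures against 7.05, 7.34 and 7.36 in Rb1+/+ cultures (change 0.26; adjusted p = 0.092, or 0.0477 with the block).

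Of the core complex genes, Fanca had the largest change of the class at 0.37 ± 0.10 (SE) and missed the threshold at an adjusted p of 0.0555 (0.0503 with the block, 0.0494 with a trended variance prior, 0.0486 with a filter at log2 6). Its values were 8.47, 8.12 and 8.24 in Rb1L/L cultures and 7.91, 8.05 and 7.77 in Rb1+/+ cultures. Fancl, the ubiquitin ligase of the complex, measured 6.70, 6.64 and 6.66 in Rb1L/L cultures and 6.39, 6.53 and 6.54 in Rb1+/+ cultures (change 0.18; adjusted p = 0.0934). Fance changed by 0.12 (interval -0.0098 to 0.24) and Fancc, one of the dimmest of the 35, by 0.17 (interval -0.060 to 0.41). Fancg was level at log2 7.83 ± 0.09 in Rb1L/L and 7.83 ± 0.04 in Rb1+/+ cultures (SD, n = 3 each), with an interval of -0.15 to 0.15 around a change near 0. Core complex genes therefore spanned the range from Fancg to Fanca.

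All 3 mismatch repair genes were higher at an unadjusted p under 0.05, against 14.4% of all tested genes. Of the 3, 2 rose past the adjusted threshold, against 7.10% of all tested genes. Msh6, which recognises single mismatched bases, measured log2 8.07, 8.15 and 7.97 in Rb1L/L cultures, against 7.43, 7.74 and 7.72 in Rb1+/+ cultures. It rose by 0.43 ± 0.09 (SE; 1.35-fold, adjusted p = 0.0241), and lost the threshold without Rb1L/L replicate 1 (0.0749) or Rb1L/L replicate 2 (0.0808). Msh3, which recognises small loops, measured 7.21, 7.32 and 7.20 in Rb1L/L cultures, against 6.97, 6.94 and 7.09 in Rb1+/+ cultures. Its rise of 0.24 ± 0.07 (SE) lay at the threshold (adjusted p = 0.0485; 0.0512 to 0.156 with 1 culture left out, 0.0629 with the block). Pms2, the nuclease subunit that follows recognition, had 8.19, 8.24 and 7.88 in Rb1L/L cultures and 7.59, 7.84 and 7.92 in Rb1+/+ cultures. Rb1L/L replicate 3 fell among the Rb1+/+ values, and the change of 0.32 did not pass over all arrays (adjusted p = 0.112) but did without that culture (0.0497).

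End joining held Xrcc6 and Xrcc5, which encode the Ku70 and Ku80 subunits of the ring that grips DNA ends, the kinase gene Prkdc, and Xrcc1, a scaffold of single-strand break repair that also serves alternative end joining. Of these 4, 2 rose and 0 fell, where 7.10% of all tested genes were called higher. Xrcc6 measured log2 7.93, 7.92 and 7.83 in Rb1L/L cultures, against 7.30, 7.63 and 7.54 in Rb1+/+ cultures. It rose by 0.40 ± 0.09 (SE; 1.32-fold, adjusted p = 0.0246) and lost the threshold without Rb1+/+ replicate 3 (0.0545), Rb1L/L replicate 1 (0.0842) or Rb1L/L replicate 2 (0.079).

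Xrcc5, the other Ku gene, did not pass. It measured 8.49, 8.37 and 8.33 in Rb1L/L cultures, against 8.29, 8.40 and 8.34 in Rb1+/+ cultures, a change of 0.05 (interval -0.094 to 0.20). Prkdc, the catalytic kinase that Ku recruits, changed by 0.0067 (interval -0.20 to 0.21), Rb1+/+ replicate 3 being its highest array at 7.52. Xrcc1 had narrow groups, with 8.64, 8.69 and 8.59 in Rb1L/L cultures and 8.40, 8.33 and 8.35 in Rb1+/+ cultures. Its rise was 0.28 ± 0.06 (SE; adjusted p = 0.0216), lost without Rb1+/+ replicate 2 (0.0536), Rb1+/+ replicate 3 (0.0582), Rb1L/L replicate 1 (0.0738) or Rb1L/L replicate 2 (0.0803).

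Of the 4 checkpoint kinases, 1 rose and 0 fell (2 and 0 at an unadjusted p under 0.05). The shares of all tested genes called higher were 7.10%, and 14.4% at the unadjusted threshold. Atm, the kinase that answers double-strand breaks, measured log2 8.49, 8.37 and 8.53 in Rb1L/L cultures, against 7.99, 8.17 and 8.26 in Rb1+/+ cultures. It rose by 0.33 ± 0.08 (SE; adjusted p = 0.0399), and with 1 culture left out it passed only without Rb1+/+ replicate 3 (0.0426). Chek1, the effector kinase of ATR, measured 8.65, 8.70 and 8.61 in Rb1L/L cultures, against 7.97, 8.46 and 8.42 in Rb1+/+ cultures. Its change of 0.37 did not pass (adjusted p = 0.0861, or 0.0525 with the block), although the groups were apart by 0.15. The spread lay in Rb1+/+ replicate 1, the lowest of its 6 arrays by 0.45. Atr changed by 0.12 (interval -0.056 to 0.30) and Chek2, the effector of ATM, by -0.06 (interval -0.20 to 0.081), so in neither kinase and effector pair did both genes pass.

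**Figure D2:**
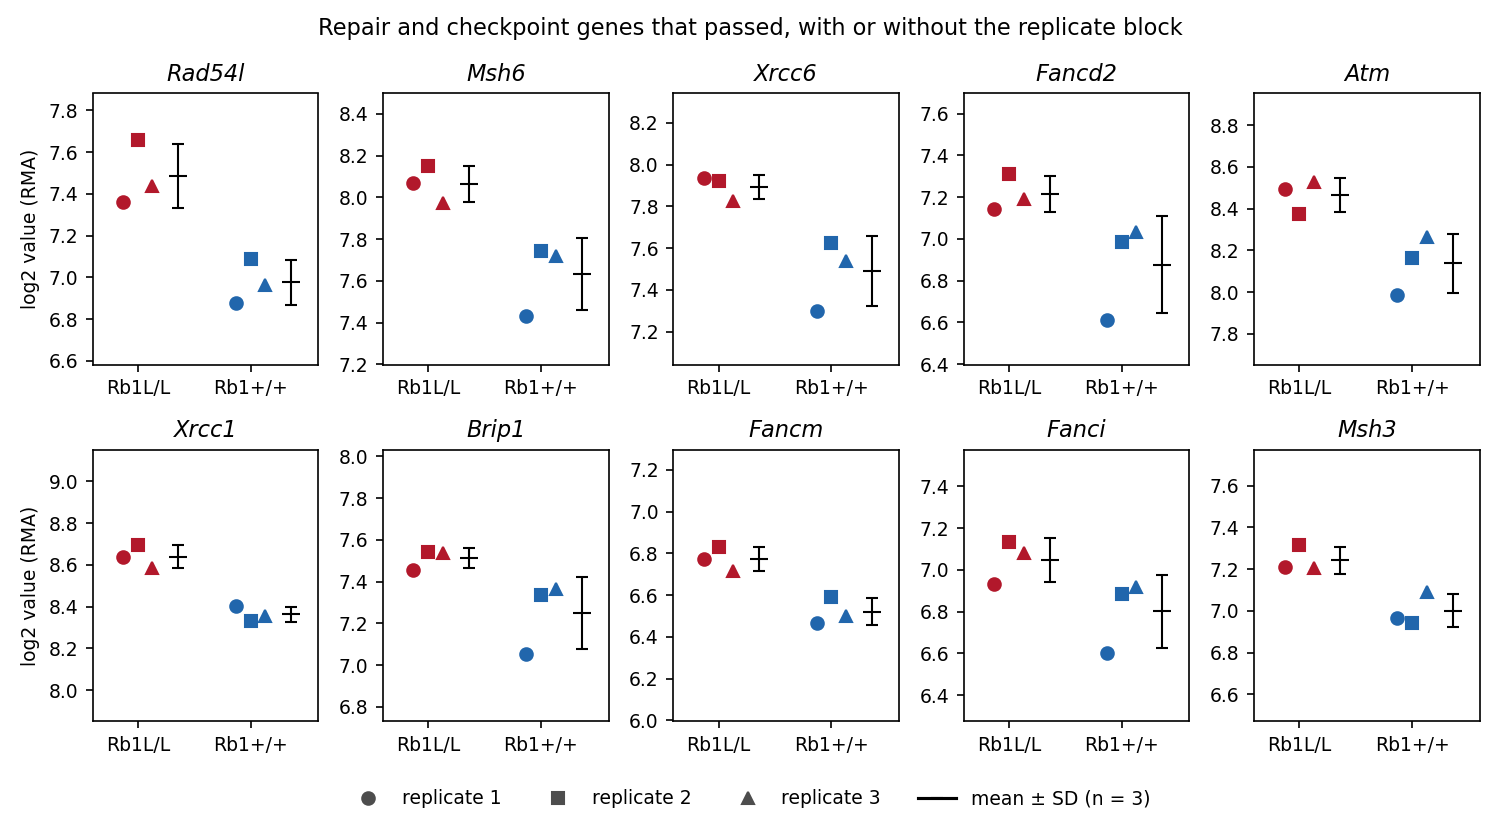
RMA log2 value of each culture for the 10 genes that passed with or without the replicate block, Rb1L/L left of Rb1+/+, each panel spanning the same log2 range. Bars are mean ± SD (n = 3 per genotype). The groups do not overlap in any panel. Rb1+/+ replicate 1 lies under the other 2 Rb1+/+ cultures in every panel but those of Msh3 and Xrcc1.

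Across the 35 genes, all Rb1L/L cultures stood above all Rb1+/+ cultures for 19, and for 0 in the opposite direction, where 16.2% and 18.3% of all tested genes had groups apart upward and downward. The Rb1L/L culture was the higher one in all 3 same-numbered pairs for 23 of the 35, against 23.0% of all tested genes. One culture weighed on the size of these differences: Rb1+/+ replicate 1 was the lowest of the 6 arrays for 26 of the 35 genes, against 2758 of all 15462 tested genes. Relative to each gene's mean over the 6 arrays, the median of the 35 genes was 0.09, 0.13 and 0.07 in Rb1L/L replicates 1 to 3, and -0.18, -0.04 and -0.04 in Rb1+/+ replicates 1 to 3. Without Rb1+/+ replicate 1 the median log2 change of the 35 genes was 0.13, and 4 of them passed. That fit called 541 of all 15462 tested genes higher. The replicate 1 cultures of both genotypes had the Y-linked Eif2s3y at log2 8.47 (Rb1L/L) and 8.36 (Rb1+/+) and lacked the Xist signal of 11.4 or more seen in the other cultures, so each genotype held 1 culture of male type. Without both replicate 1 cultures the median was 0.15 and 0 of the 35 passed, in a fit that called 92 genes in all. Without both replicate 2 cultures 1 passed (467 genes in all), and without both replicate 3 cultures 0 passed (460 genes in all).

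**Figure D3:**
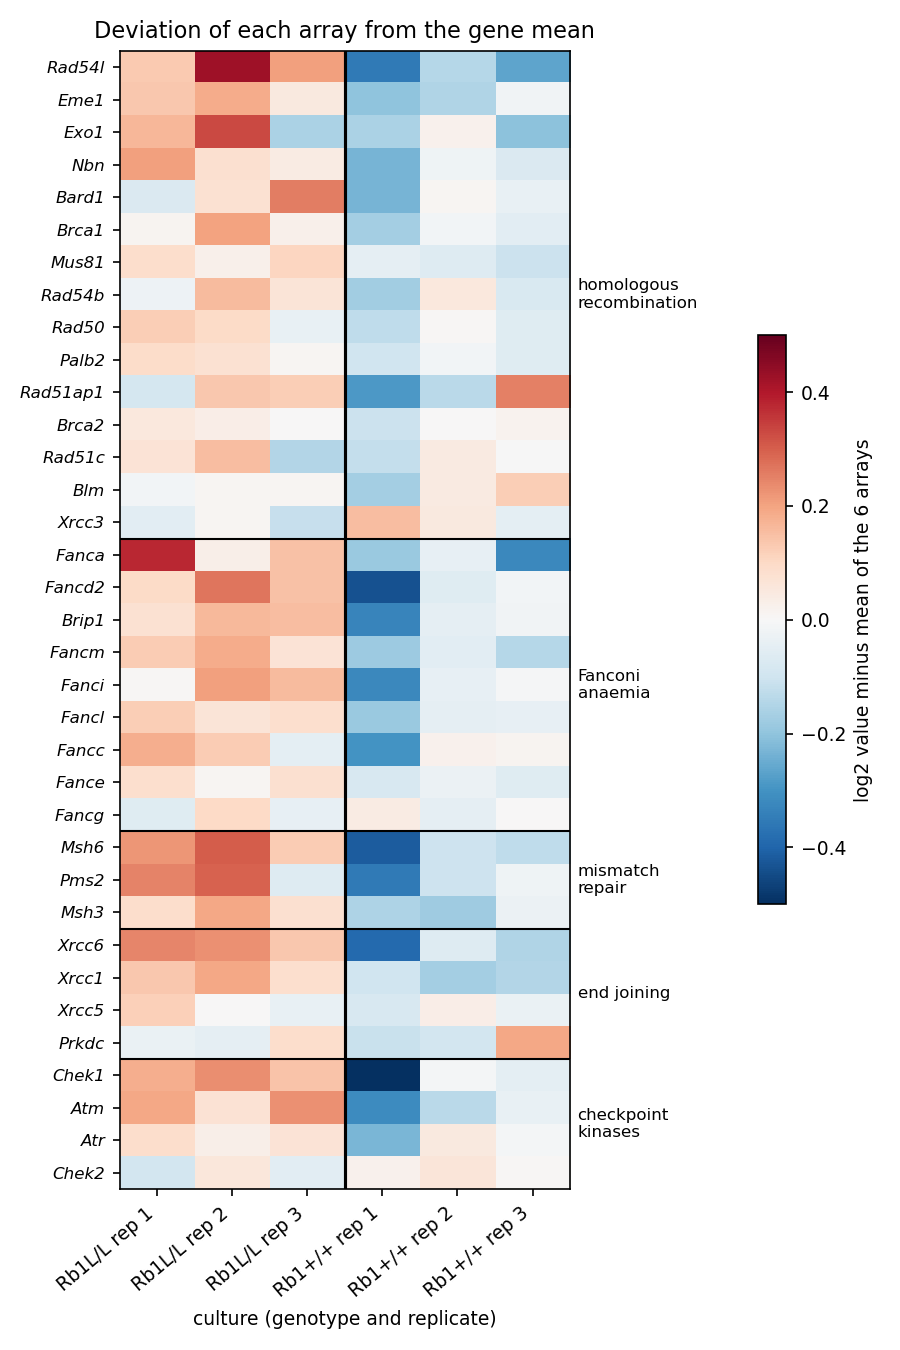
Deviation of each array from the gene's mean over the 6 arrays, on the log2 scale, with the 3 Rb1L/L cultures left of the 3 Rb1+/+ cultures and genes ordered by change within each pathway. Rb1+/+ replicate 1 is the lowest array for 26 of the 35 genes. The genotypes do not overlap for 19 genes, and Xrcc3, Chek2, Blm, Fancg and Prkdc are among those that overlap.

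The median difference lay above 0 in each pathway within each same-numbered pair. The median over the Fanconi anaemia genes was 0.33, 0.14 and 0.16 in pairs 1, 2 and 3, and over the recombination genes 0.19, 0.10 and 0.067. Over the 3 mismatch repair genes it was 0.60, 0.40 and 0.11. Many genes of replication and proliferation were also higher in Rb1L/L cultures. Of 25 tested, 17 rose (18 with the block) and 0 fell, with a median change of 0.40 and 0.52, 0.35 and 0.35 in the 3 pairs; Mcm7 and Mcm6, of the replicative helicase, rose by 0.64 and 0.83. Their summed linear signal was 33679 to 35591 in Rb1L/L and 25485 to 28876 in Rb1+/+ cultures, and 0 of the 25 lay under the brightness filter. Pcna, a clamp used in replication and repair, changed by 0.01 ± 0.07 (SE). The E2F genes E2f1 and E2f6 rose by 0.25 and 0.35, and 2 of 11 E2F and pocket protein genes passed. Over all tested genes, 7.10% were called higher (7.99% with the block). The part of replication and proliferation in the repair gene changes was not tested.

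**Figure D4:**
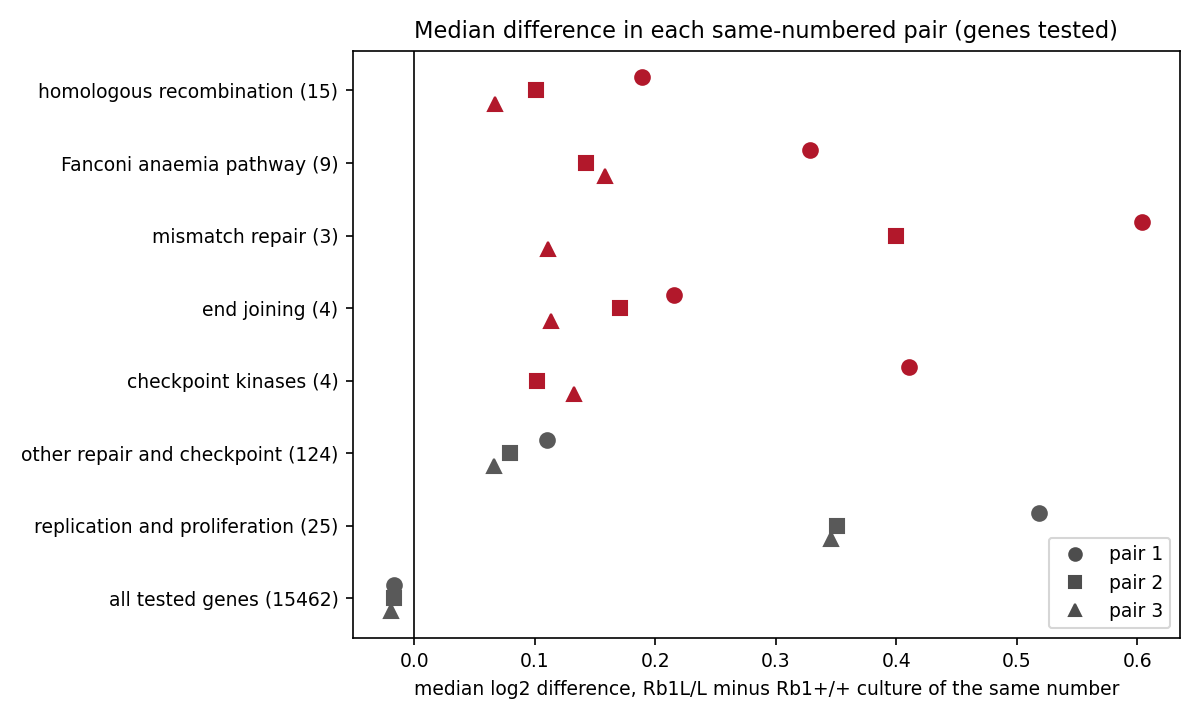
Median log2 difference between the Rb1L/L and the Rb1+/+ culture of the same number, for each pathway, for other repair and checkpoint genes, for replication and proliferation genes and for all tested genes (number of genes in brackets). Every repair pathway lies above 0 in all 3 pairs, pair 1 being highest in each, and the replication and proliferation genes lie at 0.35 to 0.52.

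Partners of a complex or a step were compared in a design too small to reach the threshold. For 12 such pairs the difference of the 2 genes was taken within each array and compared between genotypes by a two-sided exact permutation test, which with 3 against 3 arrays cannot give a p under 0.1. In 4 pairs the exact test gave that smallest value (adjusted over the 12 pairs, exact p = 0.3). Rad54l changed by 0.38 more than Rad54b, Xrcc6 by 0.35 more than Xrcc5, Atm by 0.39 more than Chek2 (listed as Chek2 minus Atm, -0.39), and Chek1 by 0.24 more than Atr (Atr minus Chek1, -0.24). Partner changes were closest for Brca1 minus Bard1 (-0.012, exact p = 1), Brca2 minus Palb2 (-0.058, exact p = 0.2) and Fancm minus Fancl (0.07, exact p = 0.4). These were followed by Fanci minus Fancd2 (-0.093, exact p = 0.2), Rad50 minus Nbn (-0.096, exact p = 0.2) and Mus81 minus Eme1 (-0.099, exact p = 0.4). Rad51c minus Xrcc3 (0.15, exact p = 0.3) and Msh6 minus Msh3 (0.19, exact p = 0.2) lay farther apart.

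The title of the series concerns divergently paired genes, which start back to back and are transcribed away from each other. Annotated starts at most 1000 bp apart on opposite strands gave a tested neighbour for 10 of the 35 genes, and textbook pairs without a promoter entry added Prkdc with Mcm4 and Nbn with Osgin2. In 3 of these 12 pairs the repair gene alone passed, in 1 the neighbour alone, and in 0 both. Xrcc6 starts 149 bp from Desi1, a gene for a SUMO protease, which measured log2 11.38, 11.34 and 11.35 in Rb1L/L and 11.47, 11.41 and 11.42 in Rb1+/+ cultures. Desi1 thus changed by -0.07 (interval -0.20 to 0.047), against 0.40 for Xrcc6. Atm starts 376 bp from Npat, a coactivator of histone genes, which changed by -0.01 (interval -0.18 to 0.16). Xrcc1 starts 694 bp from Pinlyp, which changed by -0.02 (interval -0.17 to 0.13). Pinlyp measured 5.34, 5.40 and 5.47 in Rb1L/L and 5.44, 5.34 and 5.49 in Rb1+/+ cultures, just above the brightness filter of log2 5.081, where a change would be compressed.

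The opposite layout was seen for Prkdc, whose neighbour Mcm4, a subunit of the replicative helicase, measured 10.14, 10.20 and 10.12 in Rb1L/L and 9.81, 9.96 and 9.90 in Rb1+/+ cultures. Mcm4 rose by 0.26 ± 0.06 (SE; adjusted p = 0.0319) beside the 0.0067 of Prkdc. Eme1 and Mrpl27, a mitochondrial ribosomal protein gene whose start lies 48 bp away, had nearly equal changes of 0.25 and 0.23 (adjusted p = 0.0546 and 0.0626). Brca1 and Nbr1 (0.16 and -0.11), Palb2 and Dctn5 (0.12 and -0.13) and Xrcc3 and Zfyve21 (-0.10 and 0.05) had changes of opposite sign, none of which passed. The same held for Rad51c and Tex14 (0.05 and -0.06), Tex14 lying near the filter at 5.40 to 5.59, and for Nbn and Osgin2 (0.22 and -0.0098). Pms2 and Aimp2 (0.32 and 0.14) and Rad51ap1 and D6Wsu163e (0.11 and 0.0070) had changes of 1 sign that did not pass. The within-array difference of the 2 partners reached the smallest exact p of 0.1 for Xrcc6, Atm, Xrcc1 and Palb2 (adjusted over the 12 pairs, p = 0.3), a comparison added after the values were seen.

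**Figure D5:**
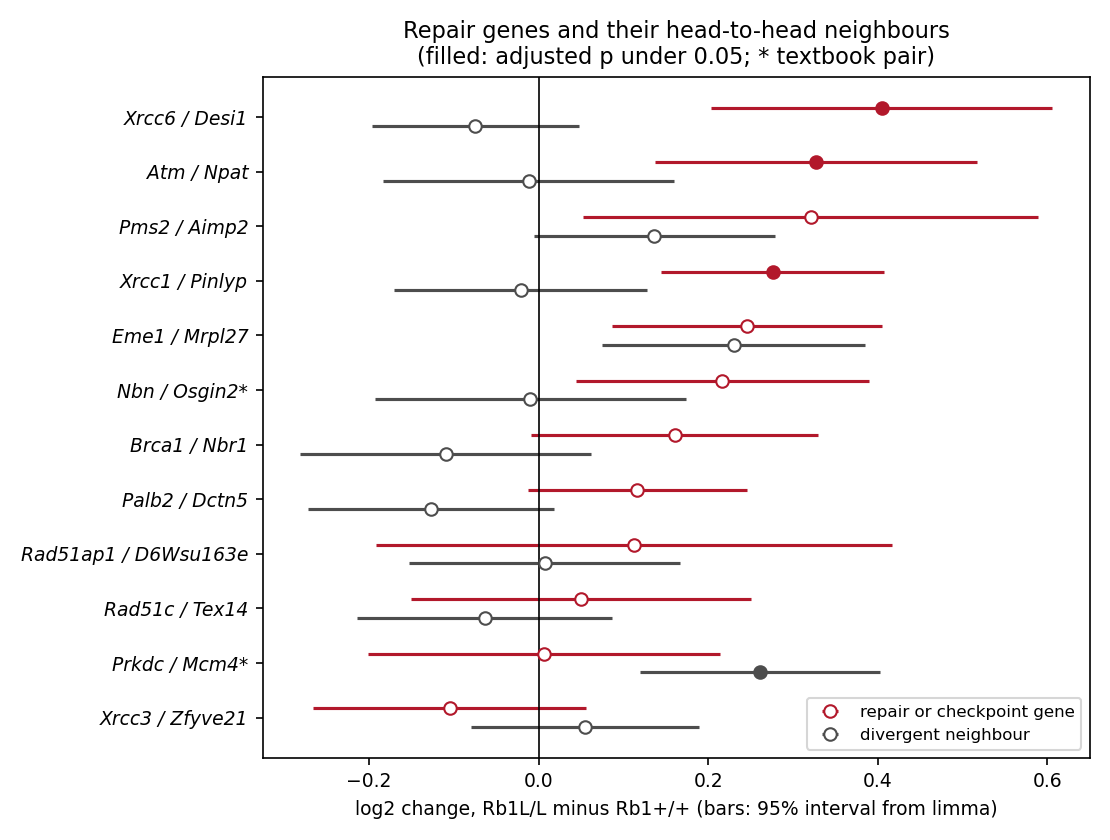
Log2 change of 12 repair and checkpoint genes and of their head-to-head neighbours, with 95% intervals from limma; filled points passed at an adjusted p under 0.05. Xrcc6, Atm and Xrcc1 are filled with open neighbours near 0, Mcm4 is the only filled neighbour, and in no pair are both filled.

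Repair and checkpoint genes outside the 36 names were taken from 8 further lists. Of 124 tested, 20 rose and 2 fell, that is 16.1% higher, with a median log2 change of 0.09. Over all tested genes 7.10% were called higher and 5.08% lower. With the replicate block 20 rose and 3 fell, against 7.99% and 6.45% of all tested genes. The counts of single lists below are to be read beside the same shares. Some lists lay near them, such as further end joining genes with 8.33% called higher. Base excision and single-strand break repair held 6 rises among 22, led by Ung, which removes uracil from DNA (0.56 ± 0.07 SE, adjusted p = 0.00423), and Lig1, the replicative ligase (0.54 ± 0.08 SE, adjusted p = 0.00654). Among 17 further checkpoint genes 4 rose (3 with the block), with Tipin, a fork protection factor, at 0.50 and Rad9a, of the 9-1-1 clamp, at 0.36. Among 27 further recombination genes 4 rose, with Swi5, a recombination cofactor, at 0.64 and Tonsl, which acts at stalled forks, at 0.35.

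The other lists held 0 to 3 calls each. Faap24 (0.28) and Ube2t (0.26), the FANCM partner and the ubiquitin conjugase of the pathway, rose among 11 further Fanconi genes, of which 3 rose and 1 fell with the block, and Pms1 (0.24) rose among 3 mismatch repair genes. End joining genes went both ways: Nhej1, the XLF factor, rose by 0.26 and Lig4, the ligase that seals ends, fell (-0.33, adjusted p = 0.0172), 2 calls among 12. Of 12 translesion synthesis genes Primpol (0.23) and Polk (0.24) rose and the ubiquitin conjugase gene Ube2b fell (-0.24). Of 20 nucleotide excision repair genes 0 passed in either direction (limma; 4 higher and 1 lower at an unadjusted p under 0.05, and 0 with the block), with a median change of 0.08.

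Rb1 itself changed by 0.11 ± 0.10 (SE; adjusted p = 0.519), and since the L allele is transcribed this does not check the labels. Over the tested genes, Pearson correlations between arrays were 0.987 to 0.993 across genotypes and 0.995 to 0.996 among cultures of 1 genotype. All 9 fibroblast markers lay above the brightness filter, with a summed linear signal of 29002 to 29637 in Rb1L/L and 31372 to 32852 in Rb1+/+ cultures; Col3a1 and Lum fell (-0.33 and -0.39), and 3 fell with the block. Of 10 macrophage markers 3 rose, Adgre1 (0.95) and Cd14 (0.35) among them, none of the 10 was under the filter, and their summed signal was 2629 to 3922 in Rb1L/L and 2214 to 3688 in Rb1+/+ cultures. Of 6 neural markers 3 fell, Fabp7 (-0.50) and Ncam1 (-0.30) among them, with a summed signal of 4470 to 4609 in Rb1L/L and 5389 to 5769 in Rb1+/+ cultures. Of 4 endothelial markers above the filter Kdr rose (0.58, adjusted p = 0.00663), while Pecam1 lay under it, and the summed signal was 516 to 674 in Rb1L/L and 458 to 730 in Rb1+/+ cultures. No epithelial or skeletal muscle marker passed in either direction (limma, 0 also at an unadjusted p under 0.05), Epcam and Myh3 being under the filter. All 12 interferon response genes tested rose, by a median of 2.26, led by Usp18 (3.79) and Rtp4 (3.57). For these marker and response counts, the shares over all tested genes were 7.10% called higher and 5.08% lower. The part of these cells and of the interferon response in the repair gene changes was not tested.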

How the data were processed

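The deposited table holds log2 values made by the authors with RMA and Partek, per the submitters' processing notes, with no version or setting named there. RMA is meant to equalise the arrays' distributions, though array medians ran from log2 6.39 to 6.45, and it compresses folds of dim genes. An array has no read depth, and the number of arrays limits the precision. Clusters with 1 gene symbol were used, the brightest per gene by the mean of the 6 arrays, and tested where that mean exceeded log2 5.081, a level that 90 percent of 1194 odorant and vomeronasal receptor genes stayed under. The test was limma 3.58.1 (R 4.3.3; lmFit, then eBayes, no block), with Benjamini-Hochberg adjustment over 15462 genes and a threshold of 0.05.

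Same-numbered cultures deviated together (correlations 0.30, 0.24 and 0.30), and the design text speaks of pairs, so a fit blocked on culture number is given where it changes a count or a call. All 35 genes, both partners of divergent pairs, and up to 2 genes per direction of smallest adjusted p in each other list are named. Eif2s3y, Xist and Pcna were chosen for their known values. The members and lists were chosen with earlier results of these data known. In data simulated for the 15462 genes from their own means and variances, the fit recovered 48% of 50 genes changed 1.25-fold and 78% of 50 changed 1.5-fold. It made 10 false calls. The simulation planted far fewer changed genes than the 1883 called here, and its same-numbered cultures were independent. These rates need not hold in these data. Alternatives covered the block, variance prior, array weights, scaling, filters, cluster choice and left-out arrays.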

Additional observations from a re-analysis of the deposited data

How the results depend on the processing

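The count of 7 repair and checkpoint genes called higher was 5 to 9 in the 10 alternatives that kept all arrays, and 0 were called lower in any of them. Rad54l, Msh6, Xrcc6, Xrcc1 and Atm passed in all 10; Fancm was lost after centring on the tested genes (adjusted p = 0.0588, a setting added after seeing the data), and Msh3 there (0.0611), with the block (0.0629), with a trended prior (0.0544) and without a filter (0.0606). Leaving out cultures, singly or as a same-numbered pair, gave 0 to 5 genes called higher among the 35, 92 to 1441 called genes among all tested (87 to 850 higher and 5 to 591 lower), and a median log2 change of the 35 genes of 0.13 to 0.23. The replicate block called 2232 genes in all. Median centring on all clusters gave 1259 genes higher and 597 lower, and on the tested genes 883 and 1067, against 1098 and 785.

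Changes near 0 turned sign. With quantile normalization Blm, Fancg and Prkdc were at -0.0086, -0.0099 and -0.0027, after centring on the tested genes at -0.020, -0.024 and -0.017, and Fancg with array weights at -0.0052. With cultures left out, Blm ranged from -0.081 to 0.066, Fancg from -0.071 to 0.051, Prkdc from -0.048 to 0.11, Rad51c from -0.020 to 0.15, Rad51ap1 from -0.0024 to 0.27 and Xrcc5 from -0.017 to 0.096. The cause of these shifts was not tested. Differences between partners of a complex were recomputed only with quantile normalization, the mean of all clusters and the replicate block; 0 passed in each, but the exact test cannot go below 0.1 (0.25 with the block), so none could pass. Those between divergent neighbours were not recomputed.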
